A study of Homo sapiens with 2 samples.

Results

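The genes described here are the D-type cyclins CCND1, CCND2 and CCND3, their partner kinases CDK4 and CDK6, the INK4 inhibitors CDKN2A, CDKN2B and CDKN2C, the inhibitor CDKN1B, and RB1. They are 10 of the 23456 gene symbols in the deposited tables and were chosen by name as the cyclin D and RB axis of G1, which is known to matter in rhabdoid cells that lack SMARCB1. The cells were G401, an established human line that was derived from a kidney rhabdoid tumor. RNA sequencing covered 2 libraries, 1 from cells with the guide sg1 against HOXB13, a homeobox transcription factor gene, and 1 from cells with a control guide. Both came from the same line, grown in RPMI with serum and harvested before confluence, and only the CRISPR guide differs between their labels. The labels do not say whether the edited cells were 1 clone or a pool. With 1 library a group, differences are given as sizes, with no replicate behind them and no test. Here sg1-HOXB13 cells and sg-control cells stand for these libraries.

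In early G1 the D cyclins bind CDK4 or CDK6, and the active kinases phosphorylate the RB protein. Phosphorylated RB releases E2F transcription factors, which switch on genes of DNA synthesis. INK4 proteins bind the kinases and keep the cyclins off, whereas p27, the product of CDKN1B, mainly blocks cyclin E with CDK2. SMARCB1 is a subunit of the SWI/SNF chromatin remodelling complex, and when it was put back into rhabdoid cells in earlier work, CDKN2A was induced and CCND1 repressed.

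Levels are FPKM, fragments scaled to transcript length and to the mapped fragments of the library, so they can be compared between genes. The log2 ratio divides sg1-HOXB13 by sg-control after 1 FPKM has been added to each, and a gene was tested when it reached 1 FPKM in either library. A gene was called higher or lower at 2-fold or more on this scale, a limit on size that carries no significance. Low FPKM values differ by steps of whole reads, which put the depth near 23.5 M reads for sg1-HOXB13 and 24.0 M for sg-control. HOXB13 itself had 4.50 FPKM in sg1-HOXB13 cells against 14.6 in sg-control cells, a log2 ratio of −1.50. This mRNA level shows neither the share of edited cells nor the amount of HOXB13 protein. Marker levels went with a rhabdoid origin but cannot identify the line as G401. VIM had 568 and 560 FPKM and KRT8 had 1810 and 1273 in sg1-HOXB13 and sg-control cells. SMARCB1 was near absent, at 0.0577 and 0.113. None of 18 chosen markers of leukocytes, endothelium, kidney tubule and skeletal muscle reached 1 FPKM in either library. This holds for the chosen panel only. Outside it, the macrophage gene CD68 had 111 FPKM in sg1-HOXB13 cells and 102 in sg-control cells, and the muscle gene CKM had 8.12 and 6.92.

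Of the 10 genes, 9 were tested and 4 were past 2-fold, against 8.76% of all 11970 tested genes. The 10 genes were chosen with earlier results of these data known, so this share is a description and not independent support. CCND1, CDK6 and CDKN2C were higher past 2-fold in sg1-HOXB13 cells, as were 4.25% of tested genes. CDKN2A was lower past 2-fold, as were 4.51% of tested genes. The remaining tested genes, CCND2, CCND3, CDK4, CDKN1B and RB1, lay within 2-fold. The median log2 ratio of the 9 was −0.16, beside −0.05 for all tested genes, with 4 ratios above 0 and 5 below. In bulk RNA a lower share of expressing cells and less RNA per cell cannot be told apart.

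The stretches upstream of 3 of the 4 genes past 2-fold are shown because these genes differed most between the libraries. They are the 250 bases before annotated starts, 5′ to 3′ on the gene's strand, from RefSeq on GRCh38.p14, a build other than the hg19 of the deposited tables. For CDKN2C and CDK6 the entry with the most marked words is shown, and CCND1 has none. Capitals mark 2 kinds of letters on either strand: the GC box GGGCGG, a word that SP1 binds, and the E2F words TTTGGCGC, TTTCCCGC and TTCCCGCC. The words were chosen after the windows had been looked at.
CDKN2C second start, chr1:50968456-50968705, plus strand: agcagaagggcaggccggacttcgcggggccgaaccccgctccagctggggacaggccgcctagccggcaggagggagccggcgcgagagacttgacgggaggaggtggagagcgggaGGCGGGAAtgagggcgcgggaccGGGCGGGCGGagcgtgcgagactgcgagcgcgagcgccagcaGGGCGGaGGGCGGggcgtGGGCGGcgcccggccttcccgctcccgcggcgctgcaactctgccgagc
CDK6 upstream start, chr7:92836574-92836823, minus strand: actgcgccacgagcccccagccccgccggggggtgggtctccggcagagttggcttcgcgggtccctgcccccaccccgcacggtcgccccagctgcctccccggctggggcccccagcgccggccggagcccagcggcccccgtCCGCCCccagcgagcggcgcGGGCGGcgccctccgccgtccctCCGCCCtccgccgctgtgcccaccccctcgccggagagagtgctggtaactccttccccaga
CDKN2A upstream start, chr9:21995325-21995574, minus strand: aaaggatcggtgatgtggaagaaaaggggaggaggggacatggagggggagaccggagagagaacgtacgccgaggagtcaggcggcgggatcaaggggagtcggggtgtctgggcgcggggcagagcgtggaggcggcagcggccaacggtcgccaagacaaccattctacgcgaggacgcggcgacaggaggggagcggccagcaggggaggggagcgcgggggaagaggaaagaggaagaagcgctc
CDKN2A downstream start, chr9:21974858-21975107, minus strand: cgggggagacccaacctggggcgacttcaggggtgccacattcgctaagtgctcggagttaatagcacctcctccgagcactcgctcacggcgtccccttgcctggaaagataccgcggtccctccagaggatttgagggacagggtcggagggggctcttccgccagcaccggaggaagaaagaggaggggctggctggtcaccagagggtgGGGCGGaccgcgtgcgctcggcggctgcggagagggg
The CDKN2C window held 1 E2F word, TTCCCGCC on the strand opposite to the printed one, from 132 to 125 bases before the start, and 5 GC boxes, of which the pair farthest upstream overlap. An E2F word was in 3.94% of all 35116 windows of this length, and among 14 windows of 8 of the genes only this window held it. CCND1 and CCND2 had no window, and RB1 had only 1, at 36.8% GC, which was not checked to be at its main start. Starts without a window were not searched, so these genes cannot be said to lack such words. The CDK6 window held 3 GC boxes, the downstream CDKN2A window 1, and the upstream CDKN2A window neither kind of word. GC boxes are common: 9 of the 14 windows held at least 1, and 42.6% of all windows did. The 14 windows had a median GC content of 66.6%, against 58.0% for all windows. The shares over all windows are therefore not a like background for these words. Of the words CCAATAAA and CTCGTAAA, which HOXB13 is known to bind, the 14 windows held none, against 0.977% of all windows. With a share so low, finding none in 14 windows says little. All the words counted here are matches of letters in short windows and show no binding.

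Among the D cyclins the order of levels differed between the libraries. CCND1, the cyclin most often amplified in human tumors, lies on chromosome 11 from 69455873 to 69469242 in hg19. It had 54.3 FPKM in sg1-HOXB13 cells and 26.5 in sg-control cells, a log2 ratio of 1.005 and 2.04-fold without the pseudocount. This sits at the 2-fold line, and with both libraries scaled to the same total the log2 ratio was 0.98 and the call was lost. CCND3, which is prominent in blood cells and differentiating tissue, is on chromosome 6 from 41902671 to 42016610. It had 16.2 FPKM in sg1-HOXB13 cells and 7.75 in sg-control cells, a log2 ratio of 0.98, just short of the line, and 2.09-fold without the pseudocount. It passed 2-fold with a pseudocount of 0.1 FPKM (log2 1.05) and under 3 of the 4 other scalings (log2 1.03 to 1.04). CCND1 and CCND3 thus differed by nearly the same factor, and their place on opposite sides of the line depends on the pseudocount and the scaling: both passed with 0.1 FPKM and under 3 of the 4 scalings, and neither did with equal totals.

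CCND2 took the other direction. This cyclin gene, on chromosome 12 from 4382902 to 4414522, had 17.9 FPKM in sg1-HOXB13 cells and 30.1 in sg-control cells, a log2 ratio of −0.72 that lay within 2-fold. Of all tested genes 9.66% had a ratio as low or lower. In sg1-HOXB13 cells CCND1 led with 61.4% of the summed FPKM of the D cyclins, and CCND2 and CCND3 held 20.2% and 18.3%. In sg-control cells CCND2 was the highest with 46.7%, next to 41.2% for CCND1 and 12% for CCND3. The sum of all D cyclins was 88.4 FPKM in sg1-HOXB13 cells and 64.4 in sg-control cells, 1.37-fold, a smaller difference than that of CCND1 or CCND3 alone.

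**Figure D1:**
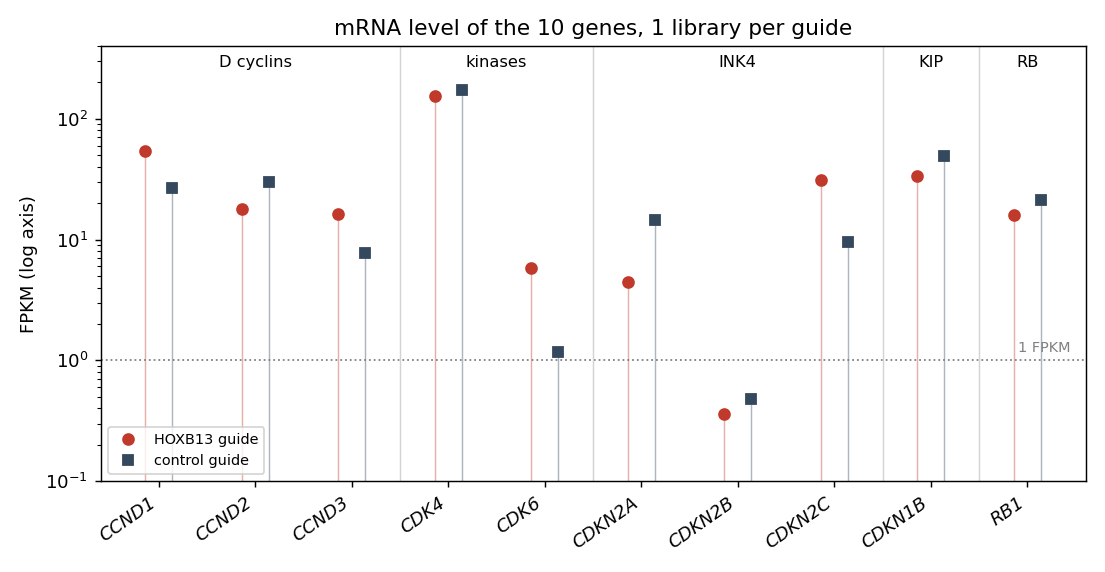
FPKM on a log axis for each of the 10 genes, grouped by role, with the sg1-HOXB13 library as circles and the sg-control library as squares, 1 library each and no error bars. CDK4 is the highest in both libraries, CDKN2B is under the dotted line at 1 FPKM in both, and CDKN2A and CDKN2C change places between the libraries.

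The kinase pair was dominated by CDK4 in both libraries. CDK4, on chromosome 12 from 58141510 to 58146230, had 153 FPKM in sg1-HOXB13 cells and 172 in sg-control cells, a log2 ratio of −0.16. It was the highest of the 10 genes in each library. CDK6, its close homologue on chromosome 7 from 92234235 to 92465941, had 5.78 FPKM in sg1-HOXB13 cells and 1.17 in sg-control cells. Its log2 ratio of 1.64 was the largest of the 10 genes, and 1.48% of tested genes had a ratio as high or higher. Because the control level was near 1 FPKM, the pseudocount shrinks this ratio: it was 4.92-fold with none, and log2 2.21 with a pseudocount of 0.1. Even so CDK6 held 3.64% of the summed kinase FPKM in sg1-HOXB13 cells and 0.679% in sg-control cells, so that CDK4 exceeded it 26.5-fold in sg1-HOXB13 cells and 146-fold in sg-control cells. The sum of both kinases was 159 FPKM in sg1-HOXB13 cells and 173 in sg-control cells.

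The INK4 genes CDKN2A and CDKN2C differed in opposite directions. CDKN2A, on chromosome 9 from 21967751 to 21994490, had 4.49 FPKM in sg1-HOXB13 cells and 14.5 in sg-control cells, a log2 ratio of −1.50 and 3.23-fold lower without the pseudocount. Of all tested genes 1.76% had a ratio as low or lower. The gene makes p16 from its downstream start and ARF, an activator of the p53 pathway, from its upstream start, in different reading frames. The tables give 1 row for both, so the value cannot be assigned to either product. CDKN2C, which encodes p18 and lies on chromosome 1 from 51434367 to 51440309, had 30.8 FPKM in sg1-HOXB13 cells and 9.52 in sg-control cells, a log2 ratio of 1.60 and 3.24-fold without the pseudocount. Of all tested genes 1.60% had a ratio as high or higher.

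CDKN2B, which encodes p15 and sits next to CDKN2A, from 22002902 to 22009312, had 0.360 FPKM in sg1-HOXB13 cells and 0.484 in sg-control cells, below the limit for testing. With the depths above and 3911 nt of transcript, these correspond to roughly 31 reads in sg1-HOXB13 cells and 43 in sg-control cells. The sg1-HOXB13 level was 74.5% of the control level with an exact 95% interval of 44.9 to 120%, so no difference was detectable at this depth. For CDKN2A the same estimate gave about 114 reads in sg1-HOXB13 cells and 376 in sg-control cells, and 31.0% of the control level (24.9 to 38.3%). For CDK6 it gave about 1550 reads in sg1-HOXB13 cells and 322 in sg-control cells, and 492% of the control level (436 to 556%). These intervals cover counting error only, rest on the longest coding transcript in GENCODE 29, and say nothing of the spread between cultures. CDKN2B also lies wholly within the locus of its antisense gene CDKN2B-AS1, which had 0.228 FPKM in sg1-HOXB13 cells and 0.212 in sg-control cells. Whether reads of opposite strands were told apart is unknown, because no source used here states the strand mode.

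The leading INK4 gene was therefore not the same in both libraries. CDKN2C made up 86.4% of the summed FPKM of the INK4 members in sg1-HOXB13 cells and 38.9% in sg-control cells, and CDKN2A 12.6% and 59.2%. This sum leaves out CDKN2D, another INK4 gene, with 2.84 FPKM in sg1-HOXB13 cells and 2.47 in sg-control cells. It also counts the whole CDKN2A row, in which ARF cannot be told from p16. CDKN2C exceeded CDKN2A 6.87-fold in sg1-HOXB13 cells, whereas in sg-control cells it stood at 0.657 of the CDKN2A level. Their sum with CDKN2B was 35.7 FPKM in sg1-HOXB13 cells and 24.5 in sg-control cells, 1.46-fold. The kinases exceeded these inhibitors 4.45-fold in sg1-HOXB13 cells and 7.06-fold in sg-control cells at the mRNA level, and protein was not measured.

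**Figure D2:**
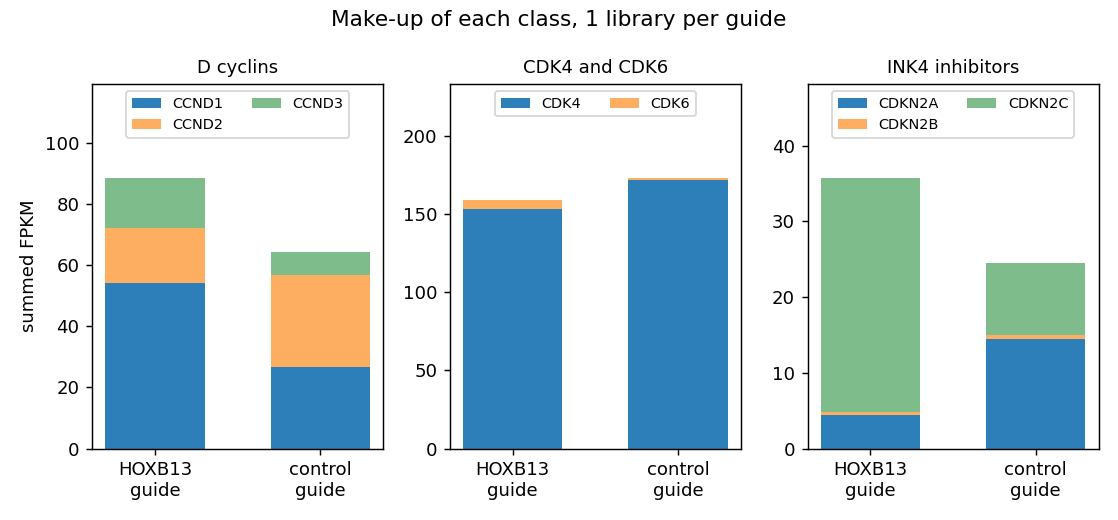
Summed FPKM of the D cyclins, of CDK4 with CDK6 and of the INK4 members, with CDKN2D left out. Each bar is 1 library, with the sg1-HOXB13 library on the left, stacked by gene on axes from 0. The D cyclin sum is 88.4 and 64.4 FPKM and the INK4 sum 35.7 and 24.5, with CDKN2C the larger part of the first INK4 bar and CDKN2A of the second, while CDK4 fills nearly all of both kinase bars.

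CDKN1B and RB1 lay within 2-fold, both on the lower side. CDKN1B, on chromosome 12 from 12870302 to 12875305, had 33.9 FPKM in sg1-HOXB13 cells and 49.6 in sg-control cells, a log2 ratio of −0.54. The protein p27 is controlled largely by its breakdown, which mRNA does not show. RB1, on chromosome 13 from 48877883 to 49056026, had 16.0 FPKM in sg1-HOXB13 cells and 21.2 in sg-control cells, a log2 ratio of −0.39. Of all tested genes 24.4% had a ratio as low or lower than RB1 and 15.9% as low or lower than CDKN1B. 

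**Figure D3:**
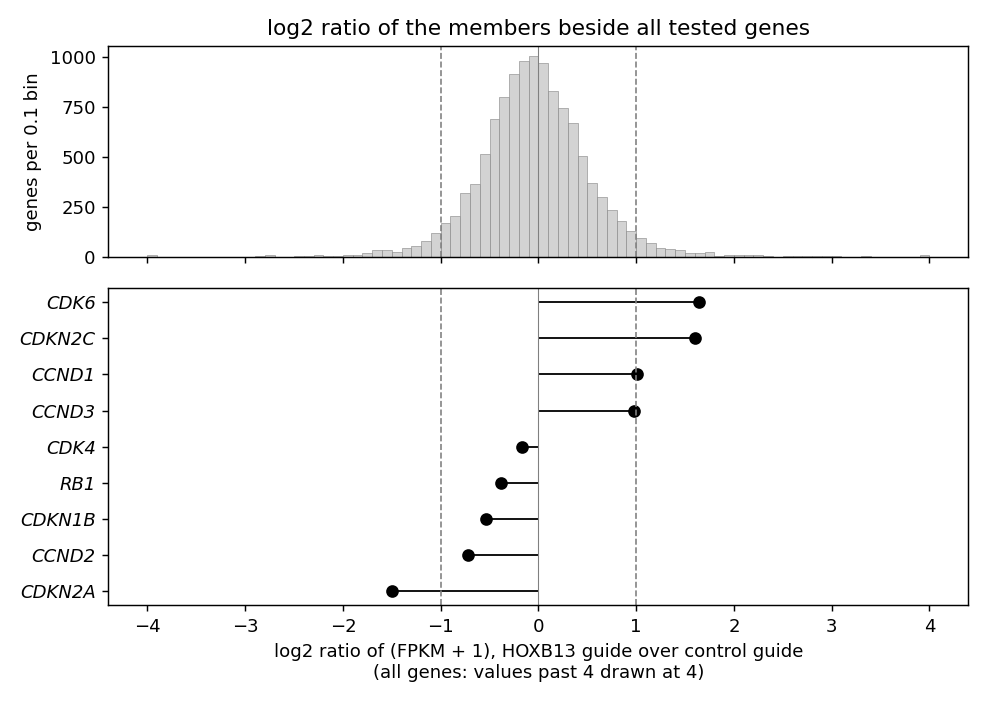
Upper panel, the number of tested genes per bin of 0.1 in the log2 ratio of (FPKM + 1), sg1-HOXB13 over sg-control library. Lower panel, the same ratio for the 9 tested members, with dashed lines at 2-fold: CDK6 (1.64), CDKN2C (1.60) and CCND1 (1.005) lie at or beyond the upper line, CCND3 (0.98) just inside it and CDKN2A (−1.50) beyond the lower line.

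Genes that overlap the members and the nearest tested genes on each side, some of them far away, were compared by the same measure. Next to CCND1, ORAOV1 had 4.19 FPKM in sg1-HOXB13 cells and 9.06 in sg-control cells, opposite in direction to CCND1, whereas MYEOV, 391118 bases away on the other side, had 4.16 and 0.539 (log2 1.75). Beside CDKN2A the nearest tested gene on one side, MTAP, which is often deleted together with it in tumors, had 7.80 FPKM in sg1-HOXB13 cells and 7.44 in sg-control cells (log2 0.06). Beside CDKN2C, FAF1 had 36.2 FPKM in sg1-HOXB13 cells and 60.2 in sg-control cells (log2 −0.72), and RNF11 had 32.2 and 30.3. Both neighbours of CDK6 had smaller ratios, FAM133B with a log2 ratio of 0.33 and CCDC132 also with 0.33. Apart from CDKN2A, itself the nearest tested gene on one side of CDKN2B, the nearest tested neighbours past 2-fold were MYEOV and APOLD1, and APOLD1, beside CDKN1B, had 7.97 FPKM in sg1-HOXB13 cells and 3.03 in sg-control cells. The other named neighbours, PARP11, C12orf5, BYSL, TAF8, AGAP2, CAAP1, CREBL2, ITM2B and RCBTB2, had log2 ratios from −0.66 (AGAP2) to 0.26 (ITM2B). Of these, CAAP1 lay 4846192 bases from CDKN2A, and PARP11 lay 400293 bases from CCND2. C9orf53, which overlaps the end of the CDKN2A locus, was listed at 0 in both libraries. The CDK4 locus shares 517 bases with TSPAN31, which had 8.24 FPKM in sg1-HOXB13 cells and 9.94 in sg-control cells. LPAR6, inside the RB1 locus, was listed at 0 in sg1-HOXB13 cells and had 0.0183 FPKM in sg-control cells.

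Around this axis, 6 lists of related genes held 71 genes, of which 69 were tested, 10 were higher and 1 was lower past 2-fold, and their median ratio was 0.34 on the log2 scale. Over all tested genes 4.25% were higher and 4.51% lower, with a median of −0.05. Of the 10 higher genes 9 were in the list of E2F targets, and the other was CDK2. All 6 lists were chosen with earlier results of these data known, so these counts are a description and not independent support. Of the other CDK inhibitors all 3 were tested and none passed 2-fold. CDKN1A, which encodes the p53 target p21, had 53.3 FPKM in sg1-HOXB13 cells and 31.0 in sg-control cells (log2 0.76), CDKN1C, which encodes p57, had 1.59 and 3.40 (log2 −0.77), and CDKN2D, the remaining INK4 gene, had 2.84 and 2.47 (log2 0.15).

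Of 17 genes of the RB family, the E2F factors and the DREAM complex, which represses cell cycle genes in resting cells, 1 passed 2-fold and the median log2 ratio was −0.08. That gene was E2F1, an activating E2F, with 9.05 FPKM in sg1-HOXB13 cells and 4.0 in sg-control cells (log2 1.01), and with both libraries scaled to the same total its log2 ratio was 0.99, within 2-fold. E2F8, a repressor E2F, had 6.04 FPKM in sg1-HOXB13 cells and 3.03 in sg-control cells (log2 0.81). MYBL2, which encodes the proliferation factor B-MYB, had 57.9 FPKM in sg1-HOXB13 cells and 32.9 in sg-control cells (log2 0.79), and LIN37, of the DREAM core, had 3.68 and 6.94 (log2 −0.76).

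Of 9 tested genes for the next step, cyclins E and A with CDK2 and its activating kinase, 1 was higher past 2-fold and the median was 0.32. It was CDK2, with 25.1 FPKM in sg1-HOXB13 cells and 9.72 in sg-control cells (log2 1.29). The subunits of the CDK-activating kinase did not share 1 direction: CDK7 had 38.6 FPKM in sg1-HOXB13 cells and 27.1 in sg-control cells, whereas CCNH had 25.4 and 43.0 and MNAT1 34.4 and 46.8. None of 16 genes for the turnover of D cyclins and p27 passed 2-fold, and their median was 0.09. SKP2, the F-box protein that marks p27 for breakdown, came nearest, with 26.3 FPKM in sg1-HOXB13 cells and 12.9 in sg-control cells (log2 0.97), and it passed 2-fold under 3 of the 4 scalings (log2 1.02 to 1.04), while its cofactor CKS1B had 128 and 208 (log2 −0.70). FBXO4, an F-box protein reported to act on D cyclins, had 7.18 FPKM in sg1-HOXB13 cells and 12.4 in sg-control cells, and USP2, a deubiquitinase of cyclin D1, had 2.74 and 1.39.

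Of 9 tested genes known to repress the INK4 locus, 1 was lower past 2-fold and the median was −0.07. It was TBX2, a T-box repressor of CDKN2A, with 1.12 FPKM in sg1-HOXB13 cells and 9.26 in sg-control cells (log2 −2.27). It was therefore lower in the same library as CDKN2A. The polycomb genes BMI1, with 61.1 FPKM in sg1-HOXB13 cells and 115 in sg-control cells (log2 −0.90), and RING1, with 18.3 and 33.3 (log2 −0.83), lay within 2-fold, and EED had 18.9 and 11.5 (log2 0.67).

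At the end of the axis, the E2F targets of G1/S leaned to the higher side. Each of the 23 genes, all tested, had a ratio above 0, 9 were higher and none lower past 2-fold, and the median was 0.79, against 4.25% higher and a median of −0.05 among all tested genes, of which 5456 had a ratio above 0. The ratios of all 23 stayed above 0 in each of the 8 alternatives, of which only the 4 scalings could change a sign. Those scalings put the median of all tested genes between −0.07 and 0.01, against −0.05. That shift is too small to test the signs. Without the 8 genes shared with the other lists, 8 of 15 were higher past 2-fold and the median was 1.09. PCNA, the sliding clamp of DNA polymerase, had 187 FPKM in sg1-HOXB13 cells and 64.0 in sg-control cells (log2 1.53), and MCM7, a subunit of the replicative helicase, had 106 and 37.1 (log2 1.49). UHRF1 and RRM2 had the largest ratios of this list, log2 1.73 and 1.65. The cyclin genes among these targets had small ratios: CCNE1 had 17.9 FPKM in sg1-HOXB13 cells and 13.9 in sg-control cells (log2 0.34), CCNE2 had 2.12 and 1.55, and CCNA2 had 50.7 and 40.4. These cyclins were named after their values were seen. Many of these targets were known from earlier results of the same libraries to be higher, so the list is a description and not independent support.

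**Figure D4:**
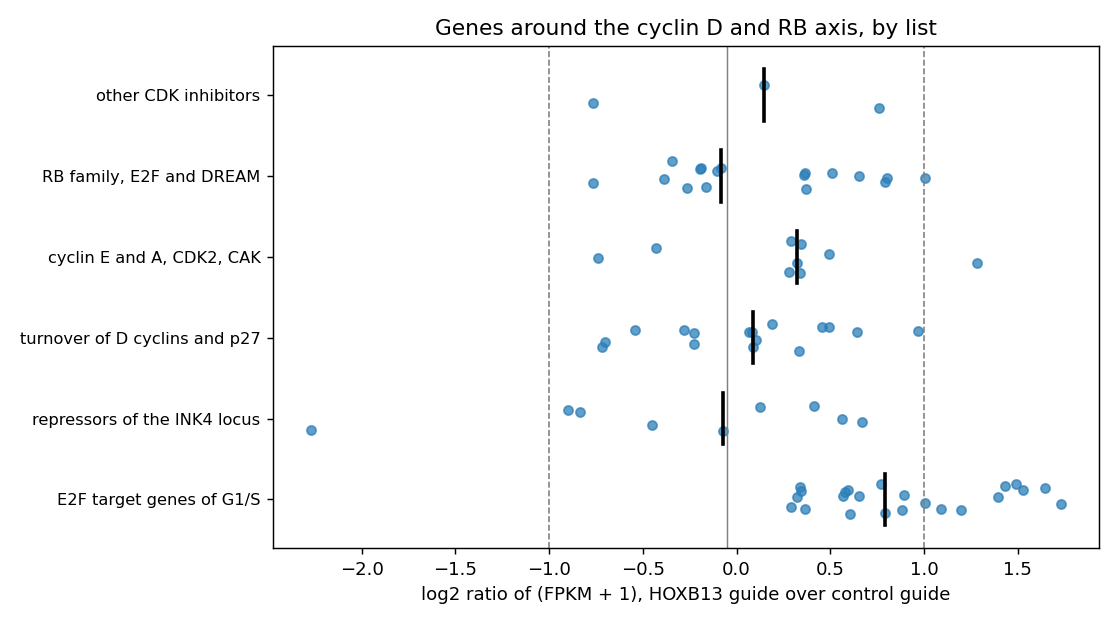
Log2 ratio of (FPKM + 1), sg1-HOXB13 over sg-control library, for each tested gene of the 6 lists, with a thick bar at each list's median, dashed lines at 2-fold and a thin line at the median of all tested genes (−0.05). The E2F targets all lie right of 0 with a median of 0.79, the other medians lie between −0.08 and 0.32, and the single point beyond the lower line is TBX2.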

How the data were processed

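RNA was sequenced from 1 G401 library with a HOXB13 guide and 1 with a control guide, grouped by sample title. Per the labels, total RNA was depleted of ribosomal RNA and the library made with the Ion PI system. Reads were processed on hg19 by the authors, whose tools were Bowtie, TopHat and Cufflinks per the submitters' processing notes. Versions, settings and strandedness are not given in the sources used here. The authors deposited FPKM per gene, 25001 rows per library, without counts. A value of 0.001 was read as 0, 4 symbols with a failed estimate were left out, and rows sharing a symbol were summed, which touched none of the 10 members.

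With 1 library per group no test was run. Ratios were log2 of (FPKM + 1), unscaled, for 11970 genes at 1 FPKM or more in either library, and a call needed 2-fold. The 10 members and the 6 lists were chosen with earlier results of these data known. Named were HOXB13, the members, overlapping and nearest tested genes, and in each list up to 4 genes with the largest absolute ratio, apart from those said to be chosen later. One neighbour of CDK4 whose symbol a spreadsheet had turned into a date was not named.

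Depth was estimated from 2524 genes below 0.3 FPKM in both libraries, of which 55.9% had ratios matching whole numbers up to 12. A subtraction of 201 nt from the gene length brought 37 of 81 single-exon genes to the same depth, so depths and read numbers are approximate. Exact 95% intervals of a ratio are Clopper-Pearson and cover counting error only. Calling was tested on simulated data. Python 3.11.15 was used with scipy 1.17.1, pandas 2.3.3, numpy 2.4.6 and matplotlib 3.10.9.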

Additional observations from a re-analysis of the deposited data

How the results depend on the processing

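The 8 alternatives changed the pseudocount, the filter on low values, the scaling or the handling of rows sharing a symbol. Only the 4 scalings could change the sign of a member's ratio, and each of the 10 members kept its sign under them. Those scalings put the median of all tested genes between −0.07 and 0.01, against −0.05. The ratios nearest 0, CDKN2B (−0.13) and CDK4 (−0.16), lay farther out than this shift, so it is too small to test the signs. A changed pseudocount cannot turn a sign, and the filters and row handling left the members' ratios as they were. CDK6 (1.62 to 2.21), CDKN2C (1.58 to 1.69) and CDKN2A (−1.67 to −1.44) stayed past 2-fold in all 8 alternatives. Only the scalings and the pseudocount moved these ratios. The members past 2-fold numbered 3 to 5, against 4 as reported, since CCND1 (0.98 to 1.07) and CCND3 (0.95 to 1.05) lie at the line. The list genes past 2-fold numbered 10 to 13, against 11, as E2F1, SKP2 and CDKN1C crossed the line in some alternatives. Over all tested genes the count was 1580 with a pseudocount of 0.1 FPKM, against 1049, because a smaller pseudocount shrinks the ratios of low genes less. Another scaling moved the share of higher genes among those past 2-fold to between 46.5 and 55.0%, against 48.5%. No paired analysis was possible because each group had 1 library. With 1 library per group, the spread between cultures is unknown, and counting error could be estimated only roughly.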

Other observations

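CDKN2A and the targeted gene HOXB13 had almost the same level in each library. CDKN2A had 4.49 FPKM in sg1-HOXB13 cells and 14.5 in sg-control cells, and HOXB13 had 4.50 and 14.6. The loci are on chromosomes 9 and 17. This pair was noticed after the values were seen, and 208 of the 11970 tested genes had a ratio as low as that of HOXB13 or lower.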
